A study of Homo sapiens with 5 samples.

Results

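Aminoacyl-tRNA synthetases join each amino acid to its tRNA, the step that gives the genetic code its meaning, and most of them come as one gene for the cytosol and another for the mitochondria. Most are housekeeping enzymes, but WARS1, the tryptophanyl-tRNA synthetase of the cytosol, is also a long-known interferon-induced gene. The genes described here are 35 of the 20033 protein-coding genes of the RefSeq annotation (GRCh38.p14), 19 for cytosolic and 16 for mitochondrial enzymes, taken from a given list that was put together with earlier results of these data in view. WARS1 was singled out, chosen by its IRF3 peaks as a gene with such a peak in control cells only, so its pattern is described and not tested. The GARS1 and KARS1 genes, listed as cytosolic, also supply the mitochondrial enzyme.

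The study used ChIP-seq to map where the transcription factors IRF3 and Smad3 sit in BT549, a basal-like breast cancer cell line, with 1 library in each of 5 groups. IRF3 is switched on by sensors of viral RNA and turns on interferon genes, and Smad3 carries the TGF-beta signal to chromatin. IRF3 was mapped after transfection of polyI:C, a synthetic double-stranded RNA, in cells stably carrying an HA control vector (HA cells) and in cells stably carrying constitutively active Smad3 (caSmad3 cells), neither with added TGF-beta. Smad3 was mapped in HA cells after mock transfection or polyI:C, both with TGF-beta added (1 ng/ml, 1.5 h), and in polyI:C-transfected caSmad3 cells, which got no TGF-beta. Active Smad3 and the lack of TGF-beta therefore cannot be told apart in the Smad3 libraries, and every group carried one of the lentiviral vectors. The lists held 4125 and 8067 IRF3 peaks in HA and caSmad3 cells, and 353, 786 and 6041 Smad3 peaks in the order of the Smad3 groups above. A list gives positions only, so read depth is unknown, a missing peak is not a measure of missing binding, and no difference between conditions could be tested. Peak lists do not measure marker genes, so the cell line could not be checked against them.

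At the level of whole genes the listed peaks went against the description of WARS1. WARS1 had 2 IRF3 peaks in each of the IRF3 libraries, and what was listed in HA cells alone was 1 of its peaks. WARS1 lies on chromosome 14 (100333790 to 100376327, hg38, minus strand), and RefSeq promoter windows give it 2 starts, an outer one at 100376327 and an inner one 980 bases further into the gene at 100375347. In HA cells a peak of 697 bases (100375197 to 100375893) lay over the inner start, and a peak of 214 bases (100376126 to 100376339) lay over the outer start. In caSmad3 cells the outer start had a peak of 293 bases (100376094 to 100376386), which took in all 214 bases of the HA peak, and a further peak of 162 bases (100376511 to 100376672) lay 184 bases outside WARS1, within its divergent neighbour WDR25. No caSmad3 IRF3 peak overlapped the inner start, and the nearest one began 200 bases beyond the edge of the wide HA peak. None of the 3 Smad3 lists had a peak within 10 kb of WARS1, and the nearest were 696951, 100046 and 99915 bases away after mock transfection, after polyI:C and in caSmad3 cells.

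**Figure D1:**
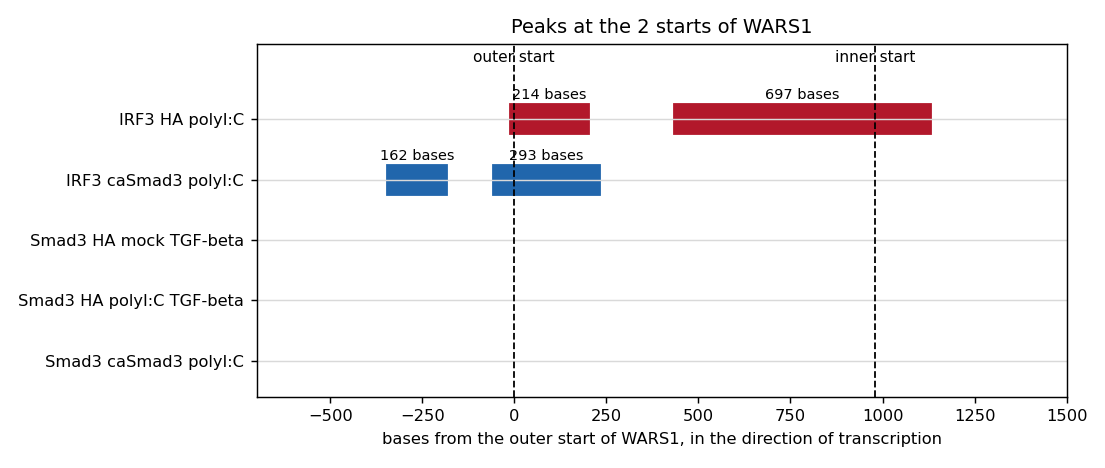
IRF3 and Smad3 peaks at WARS1 in the 5 libraries, drawn as boxes against the distance in bases from the outer start in the direction of transcription, with each box labelled by its width and the starts as dashed lines. The 697-base box over the inner start is in the HA library alone, while both IRF3 libraries have a box over the outer start.

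The bases before the starts of WARS1 are shown because the peak listed in HA cells alone covered the inner start and the shared peak the outer one. They come from RefSeq promoter windows (GRCh38.p14), are read 5′ to 3′ on the gene's strand and end at the base before the start. The inner stretch is chr14:100375348-100375597 on the minus strand and lies inside the gene. Its capitals mark a match to GAAANNGAAA, the repeat that IRF proteins bind. The outer stretch is chr14:100376328-100376484 on the minus strand, the stretch between WARS1 and WDR25. Its capitals mark CCAAT boxes (CCAAT) and an ETS site (CCGGAAG), which lie outside the HA peak. The caSmad3 peak takes in the ETS site and the CCAAT box nearer to the start, and the other CCAAT box lies outside both peaks.
WARS1 inner start: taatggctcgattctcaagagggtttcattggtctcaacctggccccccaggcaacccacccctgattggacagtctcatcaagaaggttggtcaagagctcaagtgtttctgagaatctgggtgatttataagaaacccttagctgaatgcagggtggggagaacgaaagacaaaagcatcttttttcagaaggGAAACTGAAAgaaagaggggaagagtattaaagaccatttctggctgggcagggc
WARS1 outer start: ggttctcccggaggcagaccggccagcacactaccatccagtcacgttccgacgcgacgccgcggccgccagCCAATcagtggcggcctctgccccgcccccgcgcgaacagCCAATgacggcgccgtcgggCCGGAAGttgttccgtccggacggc

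The inner stretch held the IRF repeat 55 bases before the start, and it lay inside the 697-base peak, 147.5 bases from the peak's centre. The IRF repeat was 692 bases from the nearest caSmad3 IRF3 peak. It was not found, on either strand, in the whole 300-base window of the outer start. Among the 39 promoter windows of the synthetase genes, the IRF repeat was in 3, namely the inner WARS1 window and the overlapping pair of EARS2, where no IRF3 peak was listed. Of all 35116 windows, 22198 of them from protein-coding genes, 3.57% held it. The windows also differed in composition. The inner one had 49.7% G and C and a CpG ratio (observed over expected) of 0.163, a value that 10.4% of protein-coding windows matched or fell below, and the outer one had 72.7% and 1.10. The windows of CARS1 differed likewise, with 46.7% and 0.184 at its inner start and 65.3% and 0.969 at its outer start. No IRF3 peak was listed within 1 kb of that inner CARS1 start. A match is a description of letters and does not show which protein was bound.

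The 697-base peak was among the widest IRF3 peaks listed in HA cells alone. Of the 710 HA peaks that no caSmad3 peak overlapped it was the fifth widest, after peaks nearest to IFIT2 (2071 and 1182 bases), CCL5 (762 bases) and CXCL2 (759 bases), which are interferon and inflammatory genes. Among all 4125 HA peaks it ranked 79. The rule set for genes like WARS1 (widest HA peak within 90% to 110% of its width, and no peak in the other 4 lists) found 2 genes, IFIT3 with 655 bases and CCL5 with 762, although WARS1 itself failed it through the peak at its outer start. A search added after seeing this looked for genes with at least 2 listed starts where an HA-only peak covered one start and a shared peak another. It found 2 genes among 4049, WARS1 and the zinc finger gene ZNF529 (HA-only peak of 171 bases, shared peak of 235 bases), and 410 of the 4049 had any HA peak over a start. Of protein-coding windows whose start lay under an HA-only peak, 26 of 96 held the IRF repeat (27.1%, 95% Clopper-Pearson interval 18.5 to 37.1), against 3.40% of the 1616 under a shared HA peak and 3.11% of the 18411 under no IRF3 peak. The inner WARS1 window is among the 26, and the windows are not independent, as neighbouring starts can share a peak.

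Many of the other synthetase genes had IRF3 peaks. Within 10 kb no gene had them in HA cells alone, a count too small to be set against the 1.51% of all genes. Within 1 kb of a start, MARS1 was the 1 gene with an IRF3 peak in HA cells alone. Its peak had 106 bases in a list whose narrowest has 99, and no share of all genes is given. The inner start of WARS1 is not counted there, because WARS1 had peaks of both libraries at its outer start. In HA cells 18 of 35 genes had an IRF3 peak inside or within 10 kb (51.4%, Clopper-Pearson interval 34.0 to 68.6), where 23.5% of all protein-coding genes did. In caSmad3 cells 27 did (77.1%, 59.9 to 89.6), where 40.5% of all genes did. All 18 were in both lists (22.0% of all genes), 9 were in caSmad3 cells alone (25.7% against 18.5%), and 0 were in HA cells alone (1.51% of all genes), where 3 counts would make 8.57%. The genes were listed with these peaks in view, so the shares are descriptions. The synthetase genes were also longer than others (median length 32831 bases against 24130), and the part of length in the shares was not tested. The intervals cover counting error only.

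**Figure D2:**
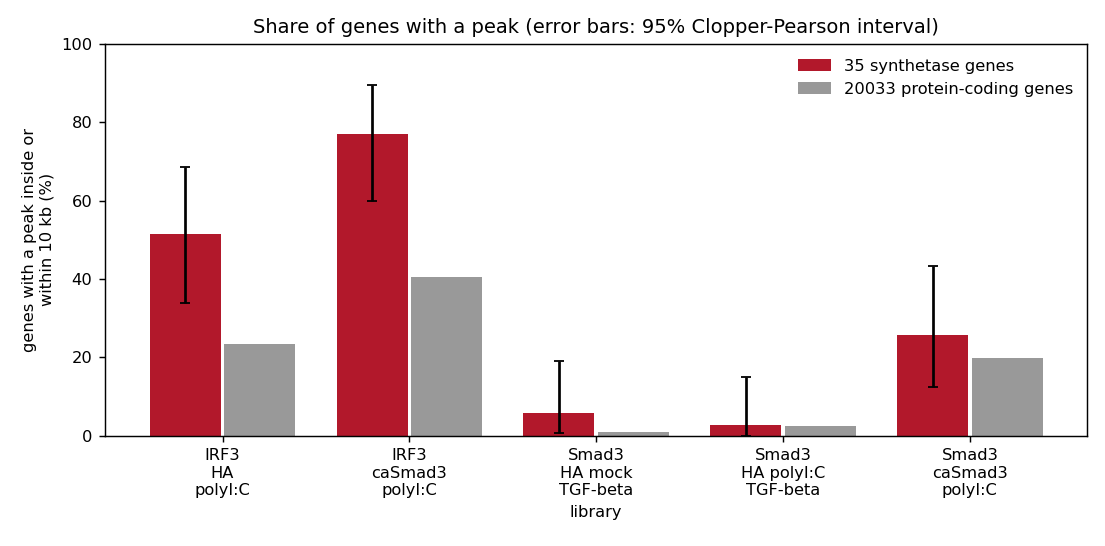
Percentage of genes with a peak inside or within 10 kb, for the 35 synthetase genes and for all 20033 protein-coding genes, by library, where error bars are 95% Clopper-Pearson intervals for the synthetase genes. The bars are 51.4% and 23.5% for IRF3 in HA cells, 77.1% and 40.5% for IRF3 in caSmad3 cells, and 25.7% and 19.9% for Smad3 in caSmad3 cells.

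Cytosolic enzymes had an IRF3 peak more often than mitochondrial ones in the caSmad3 library. There 18 of 19 cytosolic genes (94.7%, 74.0 to 99.9) and 9 of 16 mitochondrial genes (56.2%, 29.9 to 80.2) had one, and in HA cells 11 (57.9%) and 7 (43.8%) did. The difference between the classes was not tested. EPRS1, which encodes the joined glutamyl- and prolyl-tRNA synthetase, was the cytosolic gene without a peak, and the nearest IRF3 peak in caSmad3 cells was 43211 bases away. The mitochondrial genes AARS2, EARS2, FARS2, MARS2 and YARS2 also had no peak of any library, so that 6 of 35 had none (17.1%), against 53.1% of all protein-coding genes. Close to the 10 kb limit, the farthest IRF3 peaks counted were one in caSmad3 cells 9545 bases from AARS1 and one in HA cells 9073 bases from HARS1. Among genes with no IRF3 peak in the window, the nearest IRF3 peaks left out were 19646 bases from VARS1 in HA cells and 38748 bases from EARS2 in caSmad3 cells. The nearest Smad3 peak left out in caSmad3 cells, among genes with none, was 15282 bases from SARS2.

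**Figure D3:**
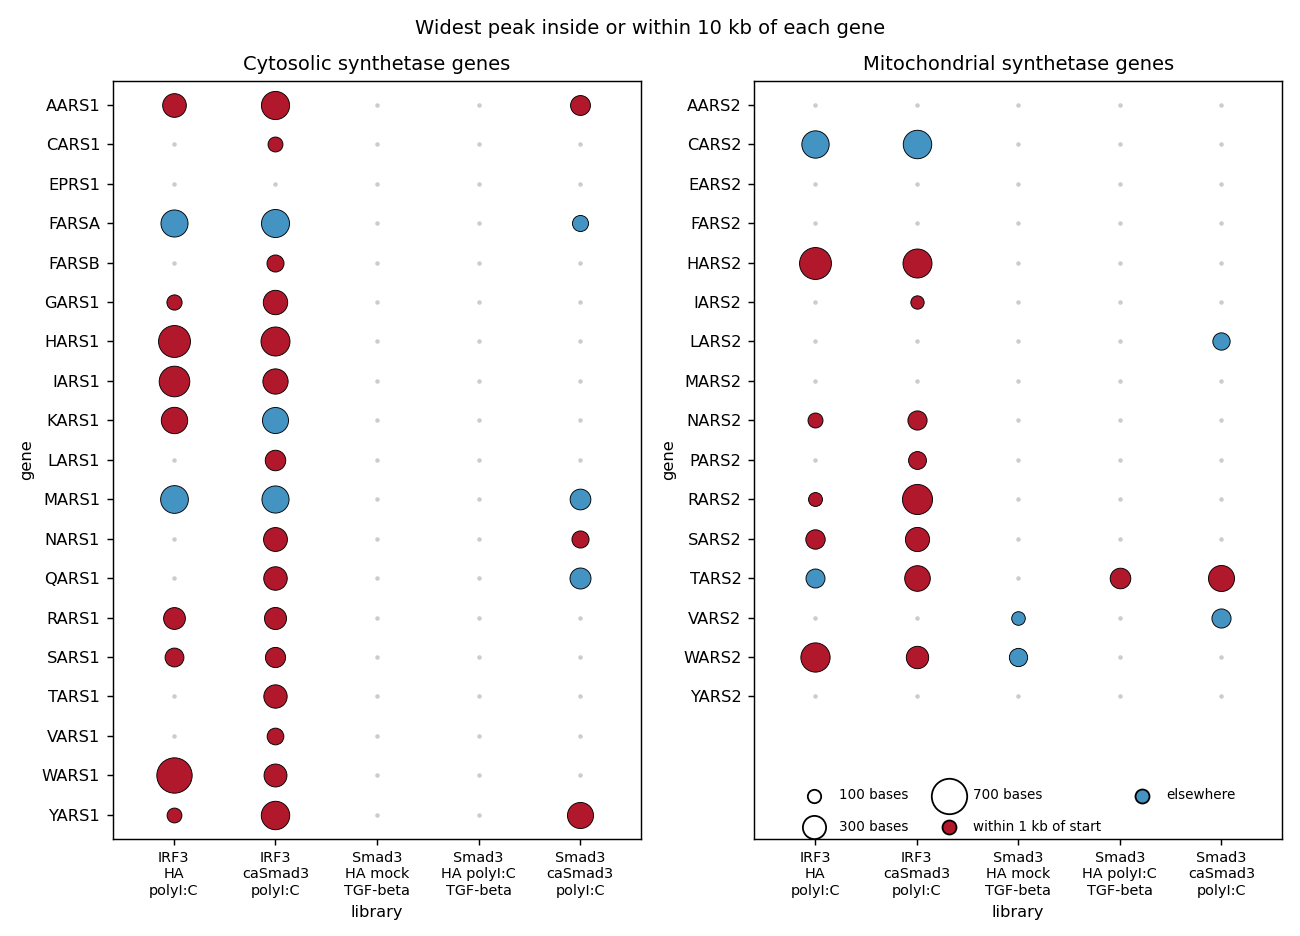
Widest peak inside or within 10 kb of each synthetase gene (rows) in each library (columns), where the area of a circle is proportional to peak width in bases, red marks a peak within 1 kb of a listed start (of a gene end for the 5 genes with no listed start) and blue one elsewhere. Of the 35 genes, 18 have an IRF3 circle for the HA library and 27 for the caSmad3 library, the 697-base peak of WARS1 is the widest, and the columns of Smad3 in HA cells hold 2 peaks after mock transfection and 1 after polyI:C.

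Starts could be placed for 30 of the 35 genes, with 39 starts in all. Within 1 kb of a listed start, 16 of the 30 genes had an IRF3 peak in HA cells (53.3%, against 18.3% of the 15842 protein-coding genes with a listed start) and 23 in caSmad3 cells (76.7%, against 33.8%). The 16 HA peaks at starts had centres from -198 to 127.5 bases from the start, where negative values lie before it, and the 26 caSmad3 peaks from -286 to 175.5 bases. A start was covered by 13 of the former and 15 of the latter. The inner start of WARS1 carried the HA centre farthest from its start.

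**Figure D4:**
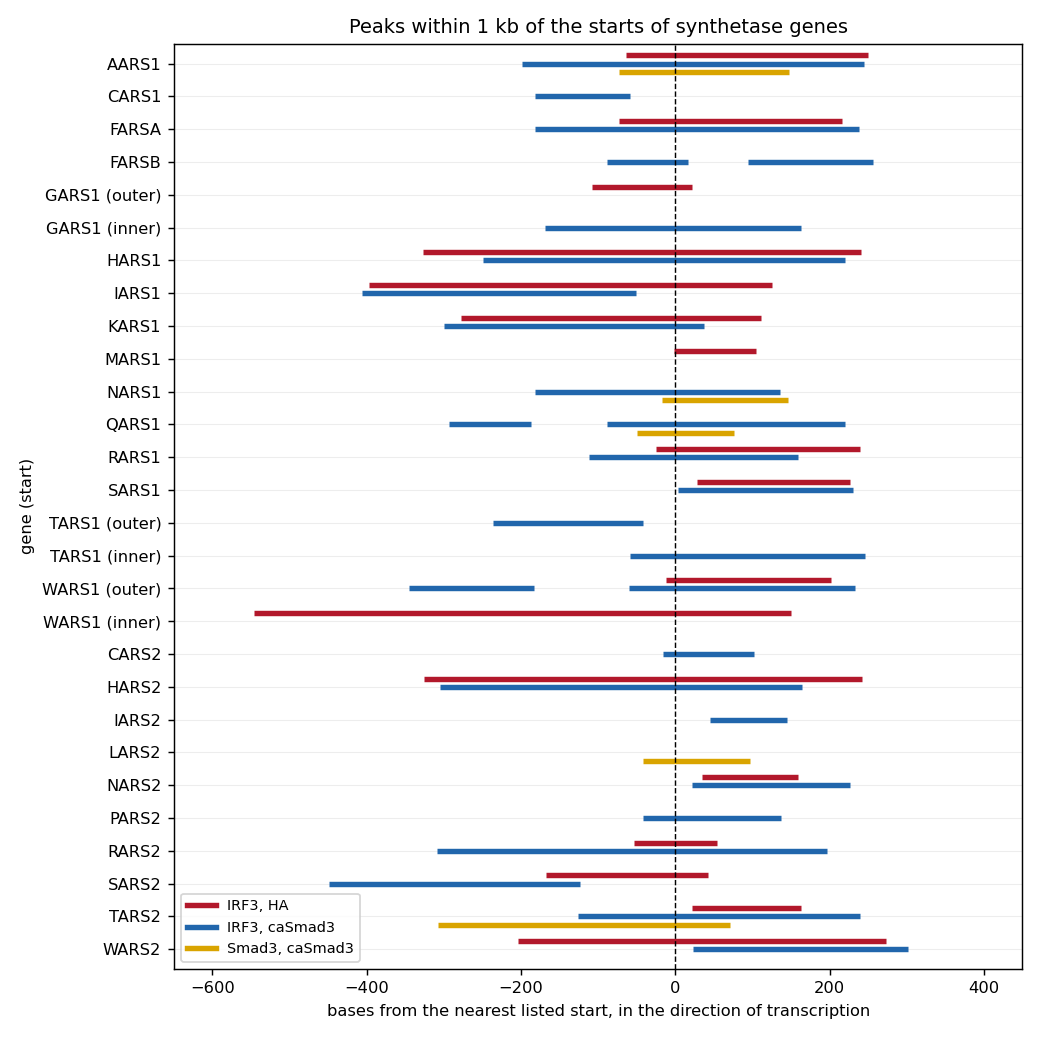
Peaks within 1 kb of the listed starts of synthetase genes, as bars from first to last base against the distance in bases from the nearest start in the direction of transcription, for IRF3 in HA cells (red), IRF3 in caSmad3 cells (blue) and Smad3 in caSmad3 cells (yellow). Most bars lie across or within 300 bases of the start, and the inner WARS1 start has a red bar alone.

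Of the genes with IRF3 peaks in both libraries, those with the widest peaks were WARS1, HARS1 with HARS2, IARS1 and RARS2. HARS1 and HARS2, the histidyl-tRNA synthetases of cytosol and mitochondria, lie head to head and share 1 peak, 568 bases in HA cells (chromosome 5, 140691130 to 140691697) and 469 bases in caSmad3 cells (140691151 to 140691619). That peak counts for both genes and is 1 site. IARS1, the isoleucyl enzyme, had 522 bases in HA cells (chromosome 9, 92293572 to 92294093) and 356 in caSmad3 cells (92293748 to 92294103), where the peak stopped 51 bases short of the start. RARS2, the mitochondrial arginyl enzyme, went the other way in width, with 108 bases in HA cells (chromosome 6, 87589933 to 87590040) and 505 in caSmad3 cells (87589791 to 87590295). WARS2, the mitochondrial counterpart of WARS1, had 1 IRF3 peak in each library, 477 bases over its starts in HA cells (chromosome 1, 119140380 to 119140856) and 279 bases in caSmad3 cells (119140352 to 119140630), which overlapped. Its windows held no IRF repeat.

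The stretch between HARS1 and HARS2 is shown because 84 bases separate the starts of the pair and the shared peak covers all of them. It is chr5:140691371-140691454, read on the strand of HARS1 (RefSeq, GRCh38.p14), and capitals mark ETS sites (CCGGAAG or its reverse complement).
HARS1 to HARS2: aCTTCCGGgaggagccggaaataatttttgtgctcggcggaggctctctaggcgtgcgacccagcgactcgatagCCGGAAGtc

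Peak by peak, 24 of the 27 distinct HA peaks near synthetase genes overlapped a caSmad3 peak (88.9%), where 82.8% of the whole HA list did. The 3 others were the wide WARS1 peak, a peak of 106 bases at the start of MARS1, the methionyl enzyme (chromosome 12, 57488067 to 57488172), and a peak of 298 bases lying 2263 bases outside CARS2, the mitochondrial cysteinyl enzyme (chromosome 13, 110715785 to 110716082). MARS1 still had an IRF3 peak in caSmad3 cells, of 410 bases and 3611 bases beyond its far end, at the start of the stress gene DDIT3. In the 24 overlapping pairs the caSmad3 peak was the wider in 18 and the HA peak in 6 (75.0% wider in caSmad3 cells, against 83.6% of the 3415 pairs of the whole list), with median widths of 239.5 and 361 bases in HA and caSmad3 cells. The 6 pairs wider in HA cells lay at HARS1, IARS1, KARS1, WARS2, DDIT3 (beyond MARS1) and a site 8125 bases from TARS2. Peak width depends on depth as well as on signal, and depth was not known here.

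**Figure D5:**
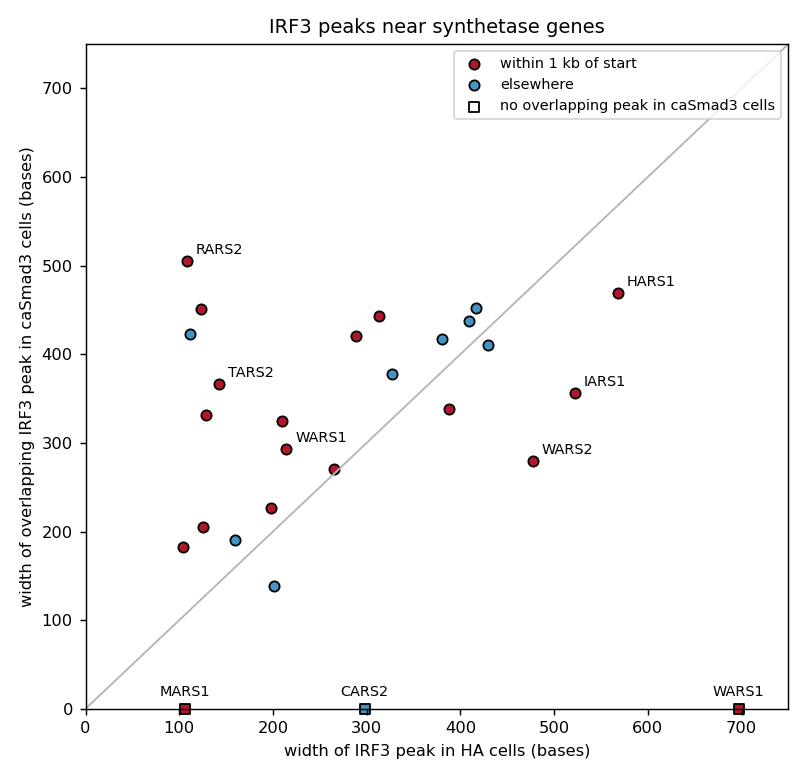
Width in bases of each IRF3 peak near a synthetase gene in HA cells (x axis) against that of the overlapping peak in caSmad3 cells (y axis), where the line marks equal widths, red and blue mark peaks within 1 kb of a start and elsewhere, and squares at 0 mark HA peaks that no caSmad3 peak overlaps. Of the 24 pairs 18 lie above the line, and the 697-base peak of WARS1 is the square farthest to the right.

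The 9 genes with an IRF3 peak in caSmad3 cells alone were CARS1, FARSB, LARS1, NARS1, QARS1, TARS1, VARS1, IARS2 and PARS2, of which 7 are cytosolic. Their widest peaks lay at NARS1, the asparaginyl enzyme (318 bases, chromosome 18, 57621701 to 57622018), QARS1, the glutaminyl enzyme (308 bases, chromosome 3, 49104538 to 49104845), and TARS1, the threonyl enzyme (304 bases, chromosome 5, 33440907 to 33441210). All 3 covered a start. LARS1, the leucyl enzyme, had 235 bases at its upper gene end, and PARS2, the mitochondrial prolyl enzyme, 178 bases over its start. FARSB, a subunit of the phenylalanyl enzyme, had 162 and 105 bases, VARS1, the valyl enzyme, 156 and 99, and CARS1, the cysteinyl enzyme, 124. IARS2, the mitochondrial isoleucyl enzyme, had 2 peaks of 99 bases, the narrowest width in the list. The partner subunit of FARSB, encoded by FARSA, had a start peak in both libraries, of 289 bases in HA cells and 421 in caSmad3 cells. As the caSmad3 list holds more peaks than the HA list, a caSmad3-only peak cannot be told apart from a site that fell below the threshold in HA cells.

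The remaining genes with peaks in both libraries had them at their starts or at a neighbour's. AARS1, the alanyl enzyme, had 313 and 443 bases over its start in HA and caSmad3 cells, and KARS1, the lysyl enzyme, had 388 and 338 over a start region it shares with TERF2IP. GARS1, the glycyl enzyme, had 129 and 332 bases, and RARS1, the arginyl enzyme, 265 and 271. SARS1, the seryl enzyme, had 198 and 227 bases, and NARS2, the mitochondrial asparaginyl enzyme, 125 and 205. SARS2, the mitochondrial seryl enzyme, had 210 bases over its start in HA cells, while its caSmad3 peak of 325 bases was centred 223.5 bases further upstream, towards the divergent gene MRPS12. YARS1, the tyrosyl enzyme, had 104 and 182 bases just inside its upper end, and a further pair of 123 and 451 bases lay 596 and 565 bases outside the gene. CARS2 had its widest peaks, of 417 and 452 bases, outside the gene near ING1. Several IRF3 peaks counted for a synthetase gene sat within 1 kb of the start of another gene, among them CALR near FARSA, WDR55 near HARS1, ADAT1 near KARS1, ING1 near CARS2, DDIT3 near MARS1, EXOSC6 and DDX19B near AARS1 and S100PBP near YARS1. When a peak was given only to the protein-coding gene with the nearest end, 16 of the 18 genes in HA cells and 23 of the 27 in caSmad3 cells still had one. No share of all genes under that rule is given, so these counts have nothing to be set against.

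The Smad3 lists of HA cells were short, and few genes, synthetase or other, had a peak in them. After mock transfection 2 of 35 genes had one (5.71%, against 0.918% of all genes), and after polyI:C 1 did (2.86%, against 2.53%). WARS2 had a peak of 186 bases well inside the gene after mock transfection (chromosome 1, 119080694 to 119080879), 59866.5 bases from its start. VARS2, the mitochondrial valyl enzyme, had one of 103 bases, 6142 bases outside the gene, at GTF2H4. TARS2, the mitochondrial threonyl enzyme, was the gene with a Smad3 peak after polyI:C, of 237 bases over its start (chromosome 1, 150487202 to 150487438). TARS2 also had the widest Smad3 peak over a listed start in caSmad3 cells, with 378 bases (150487112 to 150487489), and IRF3 peaks there of 142 bases in HA cells (150487441 to 150487582) and 366 bases in caSmad3 cells (150487293 to 150487658). The Smad3 peak of HA cells and the IRF3 peak of HA cells lay side by side without a common base, and the caSmad3 peaks of the 2 factors overlapped.

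In caSmad3 cells 9 of 35 genes had a Smad3 peak (25.7%, 12.5 to 43.3), close to the 19.9% of all protein-coding genes. They were AARS1, FARSA, LARS2, MARS1, NARS1, QARS1, TARS2, VARS2 and YARS1. The 5 widest were 379 bases at YARS1, 378 at TARS2, 246 at QARS1, 240 at MARS1 and 220 at AARS1. The QARS1 peak lay 1305 bases beyond the gene, at QRICH1, with a second one of 125 bases over the QARS1 start, and the MARS1 peak lay at DDIT3. Within 1 kb of a listed start 5 of 30 genes had one (16.7%, against 11.3%), namely AARS1, LARS2, NARS1, QARS1 and TARS2, and each of the 5 peaks covered the start. IRF3 and Smad3 peaks occurred together at 7 genes in caSmad3 cells (20.0%, against 14.8% of all genes), and at each of the 7 a Smad3 peak overlapped an IRF3 peak. The overlapping peaks lay outside the gene at FARSA (at CALR), MARS1 (at DDIT3) and YARS1 (within 1 kb of the S100PBP start). How often such peaks overlap at all genes with both factors is not given. LARS2, the mitochondrial leucyl enzyme, and VARS2 had Smad3 peaks and no IRF3 peak. Over its start LARS2 had 139 bases (chromosome 3, 45388534 to 45388672).

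The bases before the starts of TARS2, LARS2 and AARS1 are shown because Smad3 peaks covered these starts, with IRF3 in both libraries at TARS2 and AARS1 and without IRF3 at LARS2. The stretches are chr1:150487169-150487418 (plus strand), chr3:45388326-45388575 (plus strand) and chr16:70289507-70289756 (minus strand), from RefSeq promoter windows (GRCh38.p14). In TARS2 and LARS2 capitals mark the Smad box searched for (CAGACA or its reverse complement), which had no match in the TARS2 stretch. Shorter forms of the box were not searched for. Among the starts under a Smad3 peak in caSmad3 cells, LARS2 had the box in its window, and AARS1, NARS1, QARS1 and TARS2 did not. In AARS1 they mark an ATF4 site (TGATGNAA or its reverse complement) and CCAAT boxes.
TARS2: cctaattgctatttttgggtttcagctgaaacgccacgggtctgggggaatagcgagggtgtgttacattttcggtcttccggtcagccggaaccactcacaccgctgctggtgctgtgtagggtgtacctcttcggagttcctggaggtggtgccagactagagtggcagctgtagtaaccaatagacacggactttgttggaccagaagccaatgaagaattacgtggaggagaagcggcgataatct
LARS2: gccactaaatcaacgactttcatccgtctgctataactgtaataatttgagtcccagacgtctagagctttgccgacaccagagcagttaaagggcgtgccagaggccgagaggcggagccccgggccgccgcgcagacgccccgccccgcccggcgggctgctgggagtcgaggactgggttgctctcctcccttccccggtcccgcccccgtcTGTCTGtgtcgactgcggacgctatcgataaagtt
AARS1: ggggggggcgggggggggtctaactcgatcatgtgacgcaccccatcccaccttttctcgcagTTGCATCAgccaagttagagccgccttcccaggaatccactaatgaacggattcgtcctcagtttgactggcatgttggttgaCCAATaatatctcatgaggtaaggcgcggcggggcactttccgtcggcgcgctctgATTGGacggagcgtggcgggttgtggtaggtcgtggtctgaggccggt

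Motifs were counted on both strands of the 300-base windows, from 250 bases before to 50 after each start, and the letters of different motifs may overlap. The Smad box was in 8 of the 39 synthetase windows (20.5%) and in 16.9% of all 35116 windows. Of the 35116 windows 22198 are from protein-coding genes, so the shares of all windows below are of a mixed set. The ETS site was in 19 (48.7%, against 10.3%) and the CCAAT box in 20 (51.3%, against 34.6%). The ATF4 site, read by the factor that raises synthetase genes when amino acids run short, was in 8 windows (20.5%, against 3.62%), those of AARS1, CARS1, GARS1, IARS1, MARS1, NARS1, TARS1 and YARS2. With only the bases before the start, it was in 4 of the 39 (against 3.14% of all). Some genes have overlapping windows, so these are counts of windows and not of independent sequences. The ETS and CCAAT shares also varied with IRF3 peaks over the start among all protein-coding windows. The ETS site was in 26.5% under a shared HA peak and 30.5% under a caSmad3 peak and no HA peak. It was in 18.8% under an HA-only peak and 9.62% under no IRF3 peak. For the CCAAT box these shares were 44.9%, 41.7%, 34.4% and 33.0%.

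Genes that act beside the synthetases had IRF3 peaks too, and the shares below stand beside 23.5% of all genes in HA cells and 40.5% in caSmad3 cells. Of 7 enzymes of the multisynthetase complex, which holds several cytosolic synthetases in one particle, 4 had an IRF3 peak in HA cells (57.1%, IARS1, KARS1, MARS1 and RARS1) and 6 in caSmad3 cells (85.7%). Of its 3 scaffold genes, AIMP2 had one in both (166 and 309 bases), AIMP1 had one in caSmad3 cells (99 bases) and EEF1E1 had none. Of 12 other charging and editing genes, 6 had one in HA cells (50.0%) and 8 in caSmad3 cells (66.7%). TRNT1, which adds the CCA end to tRNAs, had 489 and 560 bases, and PTRH2, a peptidyl-tRNA hydrolase, 145 and 698. QRSL1, a subunit of the mitochondrial glutamyl-tRNA amidotransferase, had 104 bases in HA cells alone. Of 6 elongation factor genes that bring charged tRNA to the ribosome, 4 and 5 had an IRF3 peak (66.7% and 83.3%), with 413 and 493 bases at EEF1A1. Of 14 amino acid response genes, IRF3 peaks lay at 5 in HA cells (35.7%) and at 9 in caSmad3 cells (64.3%). DDIT3 is among the 5 and the 9 through the peaks already counted for MARS1. With 3 to 14 genes a list, these shares are coarse and were not tested. Widths in that order were 459 and 694 bases at SLC3A2, 404 and 658 at PSAT1, 380 and 420 at ATF4 and 423 and 421 at SESN2.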

How the data were processed

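Each library has 1 deposited peak list, made by the authors, whose values are positions in bases. The files have no header, and their 4 columns hold chromosome, start, end and peak name, with no score or read count. The submitters' processing notes name hg38, the aligner Bowtie2 (2.2.2.6) and the peak caller MACS2 (2.1.0). Peak thresholds, an input control and duplicate handling: not given in the sources used here. Starts were changed to 1-based positions. Genes came from RefSeq (GRCh38.p14), and starts and promoter sequences from RefSeq windows for 30 of the 35 genes. A gene had a peak when 1 lay inside or within 10 kb of it, and peaks overlapped with at least 1 base in common. Counting was tested on simulated data. Intervals are 95% Clopper-Pearson (scipy 1.17.1, Python 3.11.15). Genes and lists were chosen with earlier results of these data known. Named genes were WARS1, genes with a peak in 1 IRF3 library (3 widest in full), the 5 widest shared and caSmad3 Smad3 peaks, every Smad3 peak in HA cells, genes with no peak and up to 4 companion genes per list. The result of 1 further motif is not reported here.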

Additional observations from a re-analysis of the deposited data

How the results depend on the processing

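Of 69 alternatives over 20 results, 56 stayed within 1.5 times of the reported count and 13 did not. Among the 56 are WARS1 Smad3 counts of 0 that stayed 0. The number of genes with a Smad3 peak after mock transfection went from 2 to 1 within 1 kb of the gene, in the wider 50% of peaks and with each peak given to the nearest gene, and to 0 at starts. Genes with an IRF3 peak in HA cells alone went from 0 to 1 within 1 kb of the gene and at starts (MARS1), and to 2 when a start under an HA peak that no caSmad3 peak overlaps was counted (MARS1 and WARS1, added after seeing the data). Within 50 kb, the caSmad3 libraries put a Smad3 peak at 15 genes (42.9%, against 33.8% of all protein-coding genes) and both factors at 14. No share of all genes is given for both factors at 50 kb or for the HA-only counts of 1 and 2. WARS1 had 4 IRF3 peaks in caSmad3 cells within 50 kb. With the wider 50% of peaks WARS1 had 1 there and 15 HA peaks were shared. Without the bases after the start, the ATF4 site was in 4 synthetase windows (3.14% of all windows). No paired analysis was possible because each group holds 1 library. The motif search in other windows was not run, as no sequence beyond the promoter windows was used here. Depth is unknown, which limits every statement on a missing peak.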

Other observations

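None of the 5 listed genes of tryptophan use other than WARS1 had an IRF3 peak in both IRF3 libraries, and 22.0% of all protein-coding genes did. With 5 genes, a count of 0 is too small to be set against that share. IDO1 and IDO2, which encode tryptophan-degrading enzymes, had no peak of any library inside or within 10 kb. KYNU, which encodes kynureninase, had an IRF3 peak of 124 bases in HA cells alone. TDO2, a further tryptophan-degrading enzyme, had a Smad3 peak of 136 bases in caSmad3 cells alone, and KMO, which encodes kynurenine monooxygenase, one of 183 bases. PSAT1, which encodes an enzyme of serine synthesis, had Smad3 peaks of 99 bases in HA cells after polyI:C and 349 bases in caSmad3 cells.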
